A study of Mus musculus with 3 samples.

Results

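HNF4A and FOXA2 peaks were examined around 4 genes of the Hippo pathway in mouse hepatoblasts: Yap1, Ctgf, Cyr61 and Ankrd1. Each gene was given a fixed window on genome build mm9, and every peak that overlapped the window by at least 1 bp was taken. The windows were chr9:7880000-8055000 for Yap1 (175 kb), chr10:24265000-24370000 for Ctgf (105 kb), chr3:145260000-145365000 for Cyr61 (105 kb) and chr19:36135000-36245000 for Ankrd1 (110 kb). Together they held 5 of the 21041 HNF4A and FOXA2 peaks of the series: 2 of 11703 HNF4A peaks and 3 of 9338 FOXA2 peaks. None of the 1263 regions of the input list fell in a window. The window bounds did not depend on peak values, but the 4 genes were chosen with earlier results of these data known.

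The cells were wild-type C57BL/6 hepatoblasts, the embryonic cells from which hepatocytes and bile duct epithelium arise, taken at embryonic day 14.5. Livers were pooled, and cells were enriched magnetically for DLK1, a hepatoblast surface protein, so other fetal liver cells may have remained. Chromatin immunoprecipitation and sequencing gave 1 HNF4A library and 1 FOXA2 library, beside 1 input library made without antibody. All 3 libraries shared strain, stage, genotype and sort, and none had a replicate. Gene expression was not measured, so neither the cell identity nor the activity of these genes could be checked against markers.

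The Hippo pathway is a kinase cascade that restrains organ growth. When its kinases are active, they phosphorylate YAP1 and keep it out of the nucleus; when they are inactive, YAP1 enters the nucleus and switches on genes together with TEAD factors, which bind DNA. Ctgf (now Ccn2) and Cyr61 (now Ccn1) encode secreted matrix-associated proteins of the same family. Both, with Ankrd1, which encodes an ankyrin repeat protein known from muscle, are widely used readouts of YAP1 activity. In the liver, high YAP1 activity is linked to progenitor and bile duct fates, whereas HNF4A, a nuclear receptor, and FOXA2, a forkhead factor, are regulators of hepatocyte genes.

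The TEAD recognition sequence GGAATG, searched on both strands of the 250 bases before the annotated start, is the kind of site through which YAP1 is held on DNA. Promoter sequences came from RefSeq, build GRCm38.p6, which covered 3 of the 4 genes; Ctgf was without an entry. All 3 genes lie on the minus strand, and each sequence is printed 5′ to 3′ in the direction of the gene, with the match in capitals (CATTCC is GGAATG on the opposite strand). GRCm38.p6 positions cannot be set against the mm9 windows and peaks.
Cyr61, chr3:145650071-145650100: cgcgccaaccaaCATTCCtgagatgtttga
Ankrd1, chr19:36120037-36120066: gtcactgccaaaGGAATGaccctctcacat
Ankrd1, chr19:36119950-36119979: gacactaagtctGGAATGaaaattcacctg
Yap1, chr9:8004720-8004749: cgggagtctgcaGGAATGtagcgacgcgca

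The Cyr61 match spans bases 103 to 98 before the start. Ankrd1 held 2 matches, at bases 210 to 205 and 123 to 118, and Yap1 held 1, at bases 141 to 136. Of 32851 RefSeq promoters of the same length, 12.6% held this sequence on either strand. A FOXA consensus, TGTTTAC, was in 3.17% of promoters and in none of the 3 printed genes' promoters. The HNF4A consensus stretches CAAAGTC and CAAAGGT were in 3.84% and 3.54% of promoters and also in none of these 3. Such matches describe letters in a short window and not binding.

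The deposited peak lists carry a whole-number score for each peak, with no definition in the sources used. It is the authors' own value and was used only within its list. The HNF4A list ran from 16 to 294 with a median of 23, and the FOXA2 list from 11 to 165 with a median of 15. Sequencing depth is unknown, so a window without a peak shows that no region passed the authors' threshold there, not that the factor was absent.

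Around Yap1, which encodes the transcriptional effector of the pathway, there was an HNF4A peak and no FOXA2 peak. For comparison, each chromosome was divided end to end into tiles as long as the window. On chromosome 9, 39.9% of them held at least 1 HNF4A peak and 39.1% at least 1 FOXA2 peak. The HNF4A peak lay at chr9:7968066-7968424, 359 bp wide, and its centre was 0.7 kb above the centre of the window. Its score of 31 was in the upper part of the list: 29.3% of HNF4A peaks scored as high or higher. As 234 peaks had that same score, its rank was between 3195 and 3428 of 11703. On chromosome 9 it came between 159 and 170 of 616.

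The Yap1 peak stood alone. The nearest other HNF4A peak, at chr9:7661347-7661699 with a score of 30, was 306.7 kb away, against a median of 17.0 kb from an HNF4A peak to the next nearest. In the HNF4A list 4.3% of peaks were as far from the next peak of their list. The nearest FOXA2 peak, at chr9:7661185-7661661 with a score of 21, was 306.8 kb away and overlapped that same neighbour. The first HNF4A peak above the window, at chr9:9190626-9191271 with a score of 18, was 1.14 Mb from its edge. The first FOXA2 peak above it, at chr9:8359410-8359616 with a score of 12, was 304.4 kb away. The surroundings were sparse on both sides: within 1 Mb of the window edges there were 3 other HNF4A peaks and 5 FOXA2 peaks. That is 1.5 HNF4A peaks per Mb, against 5.09 per Mb on the rest of chromosome 9, and 2.5 FOXA2 peaks per Mb against 4.04.

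Around Ctgf, a direct YAP1 target, the pattern was the opposite, with a FOXA2 peak and no HNF4A peak. At least 1 FOXA2 peak was found in 26.8% of equally long tiles of chromosome 10, and at least 1 HNF4A peak in 27.7%. The FOXA2 peak lay at chr10:24358108-24358420, 313 bp wide, with its centre 40.8 kb above the window centre and 11.7 kb inside the upper edge. Its score of 27 was reached by 17% of FOXA2 peaks, with a rank between 1461 and 1587 of 9338. On chromosome 10, 15.7% of the 491 FOXA2 peaks scored as high or higher.

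This FOXA2 peak had no HNF4A partner nearby. The nearest HNF4A peak, at chr10:24555931-24556514 with a score of 19, was 198.0 kb away, and 14.1% of FOXA2 peaks were as far from HNF4A. The next FOXA2 peak, at chr10:24461614-24461981 with a score of 18, was 103.5 kb away. Below the window the first FOXA2 peak, at chr10:23875180-23875569 with a score of 13, was 389.4 kb from the edge. The first HNF4A peak there, at chr10:23816838-23817154, was 447.8 kb away and had a score of 16, the lowest of its list. Because the peak lies near the edge, a window of the same centre and 0.5 times the length held 0 FOXA2 peaks.

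Cyr61 was the only one of the 4 windows with peaks of both factors, and the only one with a site that they shared. It held 1 HNF4A peak and 2 FOXA2 peaks. On chromosome 3, 24.4% of equally long tiles held at least 1 HNF4A peak and 22.7% at least 1 FOXA2 peak, and 14.7% held both. Tiles with 2 or more FOXA2 peaks made up 7.67%.

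The shared site consisted of an HNF4A peak at chr3:145347853-145348168 and a FOXA2 peak at chr3:145347862-145348220. They overlapped by 307 bp, and their centres were 30.5 bp apart, 35.5 kb above the centre of the window. The HNF4A peak had a score of 23, equal to the median of its list, with 52.5% of HNF4A peaks as high or higher and a rank between 5689 and 6142. The FOXA2 peak had a score of 35, which 9.49% of FOXA2 peaks reached, with a rank between 829 and 886. The site was thus mid-list for HNF4A and well up the list for FOXA2, whose peak here was the highest placed of the 5 within its own list.

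Over the series, 24.4% of HNF4A peaks overlapped a FOXA2 peak and 30.7% of FOXA2 peaks overlapped an HNF4A peak; on chromosome 3 these shares were 25% and 32.5%. In the 4 windows together 1 of 2 HNF4A peaks and 1 of 3 FOXA2 peaks did so, numbers too small to set against those shares. Among all 2879 overlapping pairs the median scores were 27 for HNF4A and 19 for FOXA2. In 13.5% of pairs both scores were at least those of the Cyr61 pair. The centres of 28.8% of pairs were as close or closer.

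The other FOXA2 peak in the Cyr61 window lay at chr3:145264273-145264699, 4.5 kb inside the lower edge, with a score of 18. In the FOXA2 list 38.1% of peaks scored as high or higher. It overlapped no HNF4A peak. The nearest, at chr3:145245797-145246521 with a score of 18, was 18.3 kb away and lay 13.5 kb outside the window. The first FOXA2 peak below the window, at chr3:145045725-145046126 with a score of 13, was 213.9 kb from the edge. Above the window, the first HNF4A peak, at chr3:145425745-145426233, was 60.7 kb from the edge and had a score of 62, which 4.2% of the list reached. The first FOXA2 peak there, at chr3:145444192-145444527 with a score of 17, was 79.2 kb from the edge. All 3 peaks of the Cyr61 window lay in its outer parts, and a window of 0.5 times the length held 0 peaks of either factor.

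Around Ankrd1 neither list had a peak, although chromosome 19 had the highest density of both factors among the 4 chromosomes, at 7.17 HNF4A and 5.29 FOXA2 peaks per Mb. Tiles of the same length on chromosome 19 held at least 1 HNF4A peak in 35.4% of cases and at least 1 FOXA2 peak in 33.7%; 54.5% held neither. The nearest HNF4A peak was 191.6 kb above the window, at chr19:36436567-36436938, with a score of 16, the lowest of its list. The nearest FOXA2 peak above was 435.7 kb from the edge, at chr19:36680735-36681041, with a score of 24. Below, the first peaks of both factors overlapped each other 0.87 Mb away, at chr19:35259932-35260440 for HNF4A (score 17) and chr19:35259998-35260516 for FOXA2 (score 11, the lowest of its list).

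**Figure D1:**
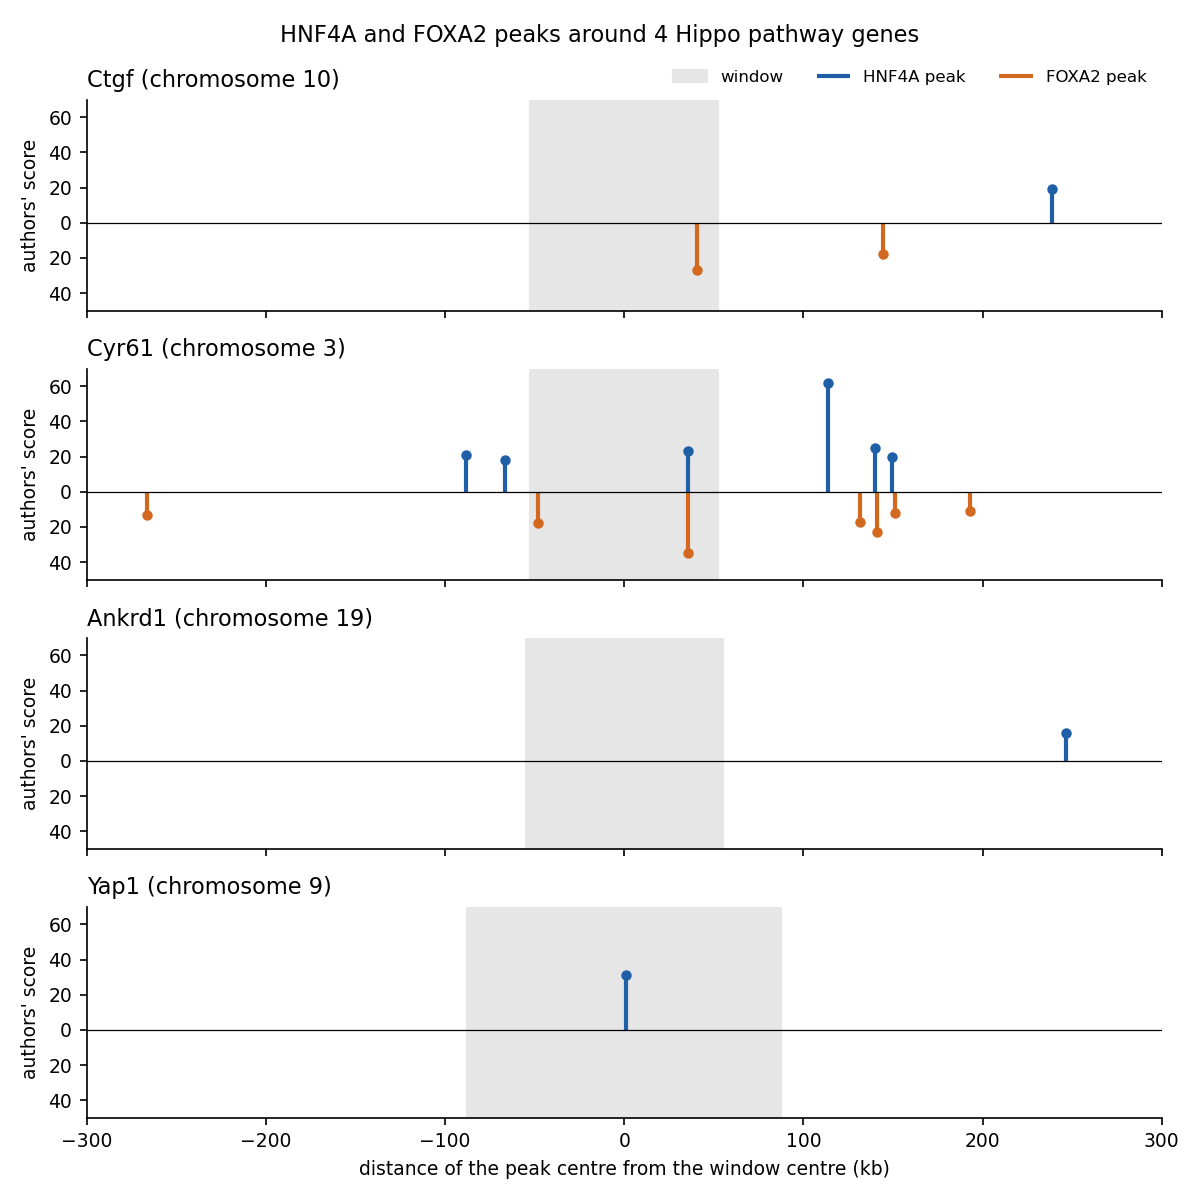
Peaks within 300 kb of the centre of each window (grey band). The horizontal axis is the distance of a peak's centre from the window centre in kb, and the stem length is the authors' score, upward for HNF4A and downward for FOXA2, which are separate scales. The Yap1 window holds an HNF4A peak of score 31, the Ctgf window a FOXA2 peak of score 27, the Cyr61 window an overlapping pair of scores 23 and 35 with another FOXA2 peak of score 18, and the Ankrd1 window no peak.

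The plot of peaks around the window centres shows that each of the 4 possible combinations occurred once: HNF4A alone at Yap1, FOXA2 alone at Ctgf, both at Cyr61 and neither at Ankrd1. In tiles of the matching lengths, HNF4A alone made up 12.4% on chromosome 9 and FOXA2 alone 10.3% on chromosome 10. On these chromosomes 27.5% and 16.5% of tiles held both factors, and 48.5% and 61.9% held neither.

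**Figure D2:**
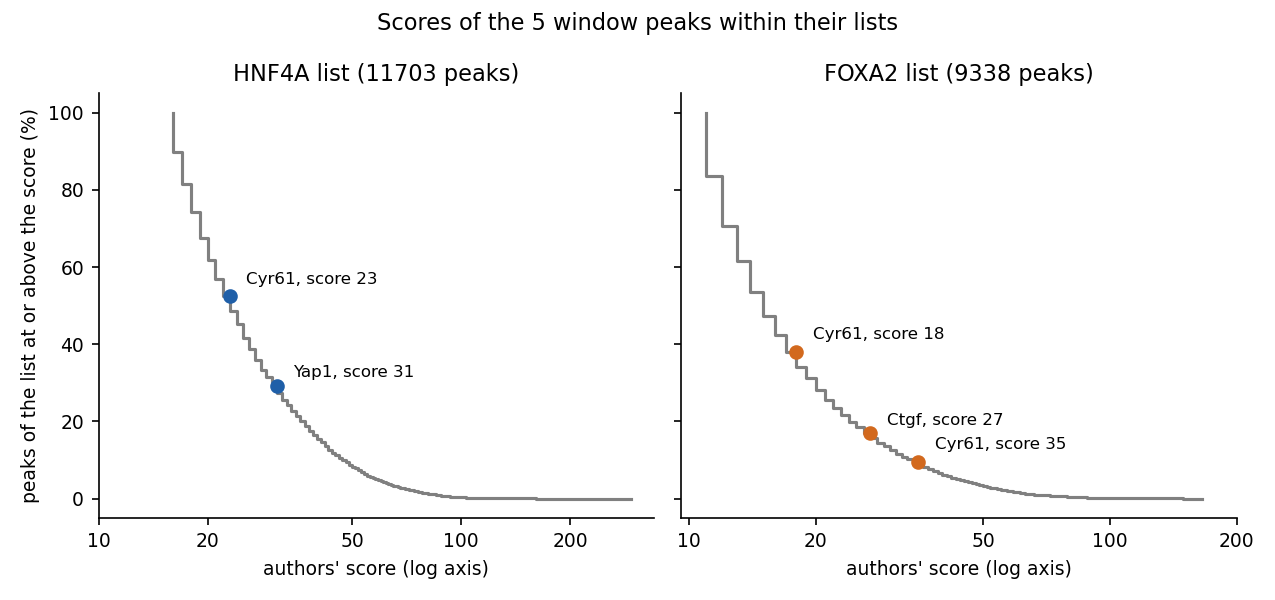
Score of each of the 5 window peaks (coloured points, log axis) within its own list, as the percentage of peaks that scored as high or higher (grey line). The points lie between 9.49% and 52.5%, so none was in the lowest part of its list.

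The scores of the 5 peaks were all at or above the median of their lists, as the plot of scores shows. So were 52.5% of all HNF4A peaks and 53.5% of all FOXA2 peaks. None of the 5 was among the strongest sites. The highest placed, FOXA2 at Cyr61, was outranked by 828 FOXA2 peaks, and the better placed HNF4A peak, at Yap1, by 3194. In width, 4 of the 5 were narrower than their list's median, which was 430 bp for HNF4A and 367 bp for FOXA2. The 2 HNF4A peaks were 316 bp at Cyr61 and 359 bp at Yap1, with 7.08% and 22.1% of their list as narrow or narrower. The FOXA2 peaks were 313 bp at Ctgf and 359 bp and 427 bp at Cyr61. As narrow or narrower were 14.3%, 45.1% and 75.5% of FOXA2 peaks, so the 359 bp peak was close to the median. The nearest input region to any of the 5 peaks was 2.5 Mb away. Input regions were rare on these chromosomes, at 0.126 per Mb on chromosome 10, 0.207 on chromosome 3 and 0.331 on chromosome 9.

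The density of each window was next compared with that of the rest of its chromosome, taken over the span between the first and last regions of the 3 lists. The HNF4A count was 1 at Yap1, where the density of the chromosome gives 0.89, and 1 at Cyr61, where it gives 0.439. It was 0 at Ctgf and Ankrd1, where 0.513 and 0.788 would be expected. The FOXA2 count was 2 at Cyr61 against 0.34 expected and 1 at Ctgf against 0.406. It was 0 at Yap1 and Ankrd1, against 0.707 and 0.582.

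As densities, the Cyr61 window had 19 FOXA2 peaks per Mb against 3.23 on the rest of chromosome 3, a ratio of 5.89 (exact 95% Poisson interval 0.713 to 21.3). For HNF4A it had 9.52 against 4.18 per Mb, a ratio of 2.28 (0.0576 to 12.7). At Ctgf the FOXA2 ratio was 2.46 (0.0624 to 13.7), and at Yap1 the HNF4A ratio was 1.12 (0.0284 to 6.26). For a window without a peak, the interval reached from 0 to 3.69 peaks. At Ankrd1 this allows up to 4.68 times the HNF4A density and 6.34 times the FOXA2 density of chromosome 19. At Ctgf it allows up to 7.2 times the HNF4A density, and at Yap1 up to 5.22 times the FOXA2 density. All 8 intervals include a ratio of 1, so with all peaks no window could be told apart from its chromosome. For the counts of 0 this was fixed in advance, as the upper limit of 3.69 exceeds the largest expected count, 0.788. These intervals could not have shown a lack of peaks. Among peaks that scored at or above the median of their list, the FOXA2 ratio at Cyr61 was 9.88, and its interval of 1.2 to 35.7 lies above 1. It rests on the same 2 peaks. The other 7 intervals at that threshold include 1, which was again fixed for the counts of 0. The intervals cover counting error only and treat peaks as independent, although neighbouring peaks cluster, so they are too narrow.

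The wider surroundings of Cyr61 also held more peaks per Mb than their chromosome. Within 1 Mb on either side of this window there were 19 HNF4A and 18 FOXA2 peaks, or 9.5 and 9 per Mb, above the 4.18 and 3.23 per Mb of the chromosome. Against these surroundings the FOXA2 ratio of the window was 2.12 (0.256 to 7.65) and the HNF4A ratio 1 (0.0254 to 5.59). At Ctgf the surroundings also held more, 7 HNF4A and 7.5 FOXA2 peaks per Mb against 4.88 and 3.86 on the rest of chromosome 10. Against these surroundings the FOXA2 ratio of the Ctgf window was 1.27 (0.0321 to 7.08). At Yap1 the surroundings were sparse, and the HNF4A ratio was 3.81 (0.0964 to 21.2). At Ankrd1, 13 HNF4A and 10 FOXA2 peaks lay within 1 Mb of the window, or 6.5 and 5 per Mb, against 7.17 and 5.29 on the rest of chromosome 19.

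Over all 4 windows, 495 kb, the 2 HNF4A peaks compare with 2.63 expected from the 4 chromosomes (exact 95% Poisson interval of the count, 0.242 to 7.22). The 3 FOXA2 peaks compare with 2.03 (0.619 to 8.77), and the 0 input regions with 0.11. Both expected counts lie inside the intervals of the counts found.

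**Figure D3:**
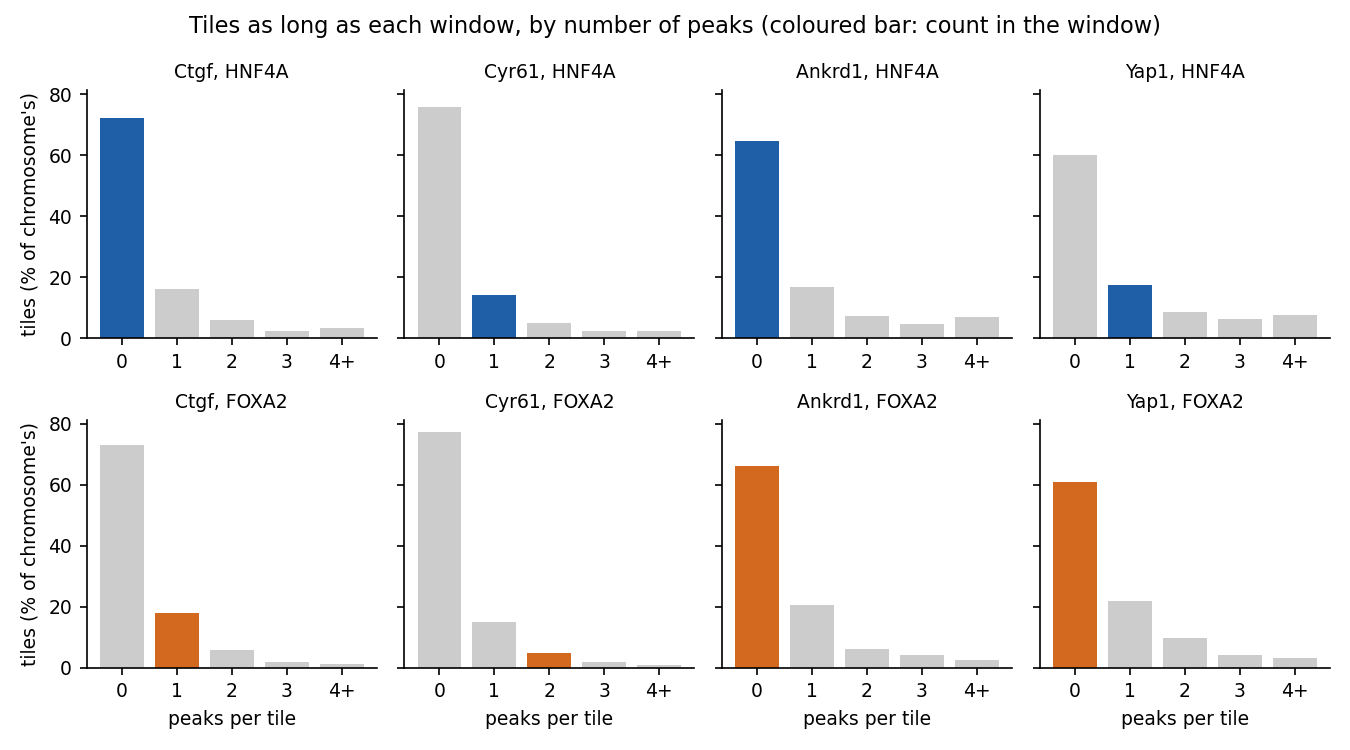
Percentage of tiles (vertical axis) by the number of peaks they hold (horizontal axis), for tiles as long as each window on the same chromosome, HNF4A above and FOXA2 below. The coloured bar marks the number found in the window. Of these bars, 4 stand at 0, and the one reached by the smallest share of tiles, 7.67%, is that of 2 FOXA2 peaks at Cyr61.

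The plot of tiles shows that a count of 0 was the usual one for every length and both factors, with between 60.1% and 77.3% of tiles empty. The empty windows, Ctgf for HNF4A, Yap1 for FOXA2 and Ankrd1 for both, therefore held the commonest count. The counts of 1 at Yap1, Ctgf and Cyr61 were reached by 39.9%, 26.8% and 24.4% of tiles.

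The stretch of sequence free of both factors around each window centre was also measured. At Ankrd1 it was 1176.0 kb long and was number 6 of 619 such stretches on chromosome 19, whose median was 23.4 kb. At Ctgf it was 482.5 kb, number 62 of 957 on chromosome 10. At Yap1 it was 306.4 kb, number 83 of 949 on chromosome 9, and the HNF4A peak that bounds it stands 0.6 kb from the centre. On the other side of that peak the stretch was longer, as the next peak, of FOXA2, began 391.9 kb above the centre. The rank of that longer stretch was not taken. At Cyr61 the stretch at the centre was 83.2 kb, number 325 of 986 on chromosome 3.

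A given position is more likely to fall in a long stretch than in a short one, so the ranks were read against the length that such stretches cover. Stretches at least as long as the one at Ankrd1 cover 15.6% of chromosome 19. For Ctgf, Yap1 and Cyr61 the shares are 50.1%, 57.5% and 89.6% of their chromosomes. By this measure the stretch at Ankrd1 was the longest for its chromosome of the 4 and that at Cyr61 the shortest. The Cyr61 stretch was still longer than the chromosome 3 median of 34.7 kb. Counted over 1 Mb on either side the order was different, with the fewest peaks of both factors around Yap1. With 1 library for each factor and 1 position for each gene, both orders are descriptions and were not tested.

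**Figure D4:**
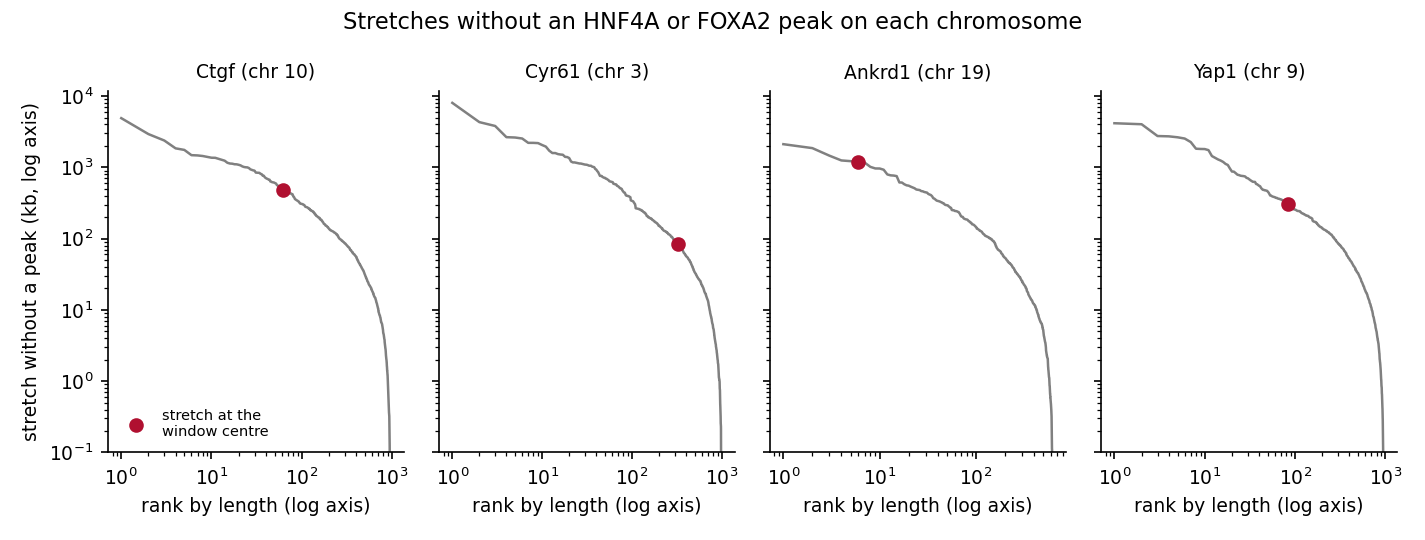
Lengths of all stretches without an HNF4A or FOXA2 peak on each chromosome, in kb (vertical log axis), ranked from the longest (horizontal log axis). The red point is the stretch at or beside the window centre: 482.5 kb for Ctgf, 83.2 kb for Cyr61, 1176.0 kb for Ankrd1 and 306.4 kb for Yap1.

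The gene that each peak serves is not given by these data. In the order of RefSeq protein-coding genes on GRCm38.p6, Yap1 lies between Birc3 and Cfap300, Ctgf between Moxd1 and Enpp1, Cyr61 between Znhit6 and Ddah1, and Ankrd1 between Rpp30 and Pcgf5. Whether a peak lies in an exon, an intron or between genes was not analysed here, since no annotation of mm9 was used. Other genes of the Hippo pathway, such as the TEAD factors and the upstream kinases, were not analysed here for the same reason.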

How the data were processed

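ChIP-seq of HNF4A and FOXA2 and an input library, 1 of each, came from pooled livers. For every library the authors deposited a list without a header, giving each region's chromosome, start, end and a whole-number score. Neither its definition nor the peak caller is given in the sources used here. Per the submitters' processing notes, mm9 was the build. Sequencing depth is unknown, and no test between libraries was possible.

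Starts and ends were read as 1-based and inclusive, a closing line without a region was skipped, and chromosome names were matched without their prefix. Peaks overlapping a window by at least 1 bp were counted, ranked by score within their list and matched to the other factor by an overlap of at least 1 bp. Densities used the span between the first and last regions of the 3 lists on a chromosome, with exact 95% Poisson intervals. Tiles of each window's length were laid from the first region. The overlap counting was tested on simulated peaks of equal width that either coincided with a partner or lay clear of it. Partial overlaps and the tile counts were not covered by that test. The members and lists were chosen with earlier results of these data known. All peaks in the windows are named, and outside them the nearest peak of each factor on either side. Tables were handled with pandas 2.3.3 and numpy 2.4.6 under Python 3.11.15, intervals came from scipy 1.17.1, and plots from matplotlib 3.10.9.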

Additional observations from a re-analysis of the deposited data

How the results depend on the processing

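The size of the window mattered most. With windows of 0.5 times the length about the same centres, the FOXA2 count at Ctgf and both the HNF4A and FOXA2 counts at Cyr61 became 0, and so did their density ratios, while the Yap1 peak remained. With 2 times the length the HNF4A count at Cyr61 was 3 instead of 1. In these 7 of 86 recomputed values a count moved by more than 1.5 times, or a ratio or share moved beyond its own 95% interval. The other 79 did not, but the intervals of the ratios are wide: of 40 recomputed density ratios, a further 12 moved by more than 1.5 times within them. The Yap1 HNF4A ratio of 1.12 ranged from 0.561 to 3.81, and the Cyr61 FOXA2 ratio of 5.89 was 2.12 against 1 Mb on either side and 9.88 at scores at or above the list median. That last one was the 1 of 40 whose interval, 1.2 to 35.7, did not include 1. The 79 came from the remaining window sizes, scores at or above the list median, peaks over 10 kb from input, stricter or looser definitions of a shared peak, all autosomes as reference, tiles shifted by 0.5 of a tile and, chosen after seeing the data, the 1 Mb on either side as reference. Many of the 79 were fixed in advance. In a window with 0 peaks, a shorter length, a score filter or another reference must give 0 again. All tiles also hold at least 0 peaks. The filter on input could remove no window peak, as the nearest input region was 2.5 Mb away. Such values say nothing about stability. No paired analysis was possible because each group has 1 library. Counts of 0 to 2 peaks per window limit what any density can show.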

Other observations

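Within 100 kb above the Cyr61 window there were 3 HNF4A and 3 FOXA2 peaks, and 2 of each lay close together without overlapping. They were chosen after their values were seen. The share of all peaks that lie as close to the other factor without overlapping was not counted. The arrangement can therefore not be called particular to this region. An HNF4A peak at chr3:145452158-145452510 (score 25) had its centre 1471 bp from that of a FOXA2 peak at chr3:145453559-145454051 (score 23). A further HNF4A peak at chr3:145461723-145462263 (score 20) was 1576 bp from a FOXA2 peak at chr3:145463365-145463772 (score 12). The other HNF4A peak, the one of score 62, was 18.4 kb from the nearest FOXA2 peak, and the other FOXA2 peak, of score 17, was 8.0 kb from the nearest HNF4A peak. With 100 kb added on either side, the Cyr61 region held 6 HNF4A and 5 FOXA2 peaks, of which 1 of each overlapped. Over the series 24.4% of HNF4A and 30.7% of FOXA2 peaks overlapped the other factor, and these counts are too small to differ from that. The same margin gave 0 HNF4A and 2 FOXA2 peaks for Ctgf, 1 and 0 for Yap1 and 0 and 0 for Ankrd1.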
